A study of Mus musculus with 12 samples.

Results

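The 10 genes Bcat2, Bckdha, Bckdhb, Dbt, Acad8, Hibch, Aldh6a1, Mccc1, Pcca and Pccb encode enzymes that break down the branched-chain amino acids leucine, isoleucine and valine. They were chosen by name, as enzymes of the transaminase step, the branched-chain ketoacid dehydrogenase complex and the distal valine, leucine and propionate steps. Earlier results of these data were known at that choice. The counts of the 10 genes beside those of all genes are therefore a description. Each of the 10 genes had 1 probe set annotated to its symbol alone, so that all were measured among 15267 genes. Expression was profiled on Affymetrix arrays in 3T3-L1 adipocytes, a mouse cell line of fibroblast-like preadipocytes that had been differentiated into fat cells. On day 9 the cells received an adenovirus, at a multiplicity of infection of 500, with a control shRNA or with one that targets TBLR1, the corepressor subunit encoded by Tbl1xr1. Then, 3 days later and after 2 h in Krebs-Ringer buffer, the β-adrenergic agonist isoproterenol was added at 10 µM for 3 h or left out. This made 4 groups of 3 arrays: control shRNA untreated, TBLR1 shRNA untreated, control shRNA with isoproterenol and TBLR1 shRNA with isoproterenol. All 4 groups had been transduced with an adenovirus, and untransduced cells were not analysed here. The labels do not say whether the 3 arrays of a group came from separate cultures, so the p-values measure the spread between these arrays, which may be technical.

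Branched-chain amino acids first lose their amino group to a transaminase, and the resulting ketoacids are then decarboxylated irreversibly by the mitochondrial branched-chain ketoacid dehydrogenase complex. After this step each carbon skeleton has its own route: leucine yields acetyl-CoA and a ketone body, whereas valine and isoleucine pass through propionyl-CoA, which enters the TCA cycle as succinyl-CoA. In adipocytes these enzymes are known to increase during differentiation, and the carbon of the amino acids is used in part for fatty acid synthesis.

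Values are log2 expression levels of transcripts, and protein levels were not examined here. A difference is given as the difference of group means on the log2 scale ± SE, with n = 3 arrays per group. Levels of different genes come from different probe sets, so which gene is the more abundant was not compared. Where the levels of 2 subunits are subtracted on the same array, the result is read only as its change between arrays. The arrays were closely alike, with Pearson correlations over all probe sets other than controls of 0.9977 to 0.9987 within groups and 0.9773 to 0.9972 between groups. Over all 16553 probe sets of the first array the lower quartile of the levels was 6.25 and the median 7.14. Every value of the 10 genes lay above that median. The targeted gene, Tbl1xr1, measured 7.20, 7.27 and 7.26 on the untreated control shRNA arrays and 6.45, 6.47 and 6.43 on the untreated TBLR1 shRNA arrays. With isoproterenol its levels were 7.23, 7.34 and 7.29 with control shRNA and 6.48, 6.41 and 6.37 with TBLR1 shRNA. All 6 TBLR1 shRNA arrays thus lay below all 6 control shRNA arrays, with differences of -0.79 ± 0.04 (adjusted p = 8.36e-10) without and -0.86 ± 0.04 (adjusted p = 2.3e-10) with isoproterenol.

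TBLR1 shRNA lowered the transcripts of most of the 10 enzymes. In untreated cells 8 of the 10 genes fell and none rose at an adjusted p under 0.05 in limma, against 20% of all genes lower and 17.7% higher. In untreated cells the differences ranged from -0.93 to -0.08 with a median of -0.42, whereas the median of all genes was -0.01. With isoproterenol 9 of the 10 fell and none rose, against 22.3% of all genes lower and 19.5% higher, and the differences ranged from -1.05 to -0.09 with a median of -0.51. In both comparisons the TBLR1 shRNA arrays of all 10 genes lay below the matching control shRNA arrays without overlap, which was so for 25.5% of all genes without and 26.2% with isoproterenol. The 2 comparisons share no arrays, but both use the spread estimated from all 12 arrays. Adipocyte markers were lower as well, as given further on, and in bulk samples fewer cells of a type and less RNA per cell cannot be told apart. The genes with the largest differences were Pccb, Hibch, Aldh6a1, Bckdhb and Mccc1, and those with the smallest were Bckdha and, in untreated cells, Bcat2.

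**Figure D1:**
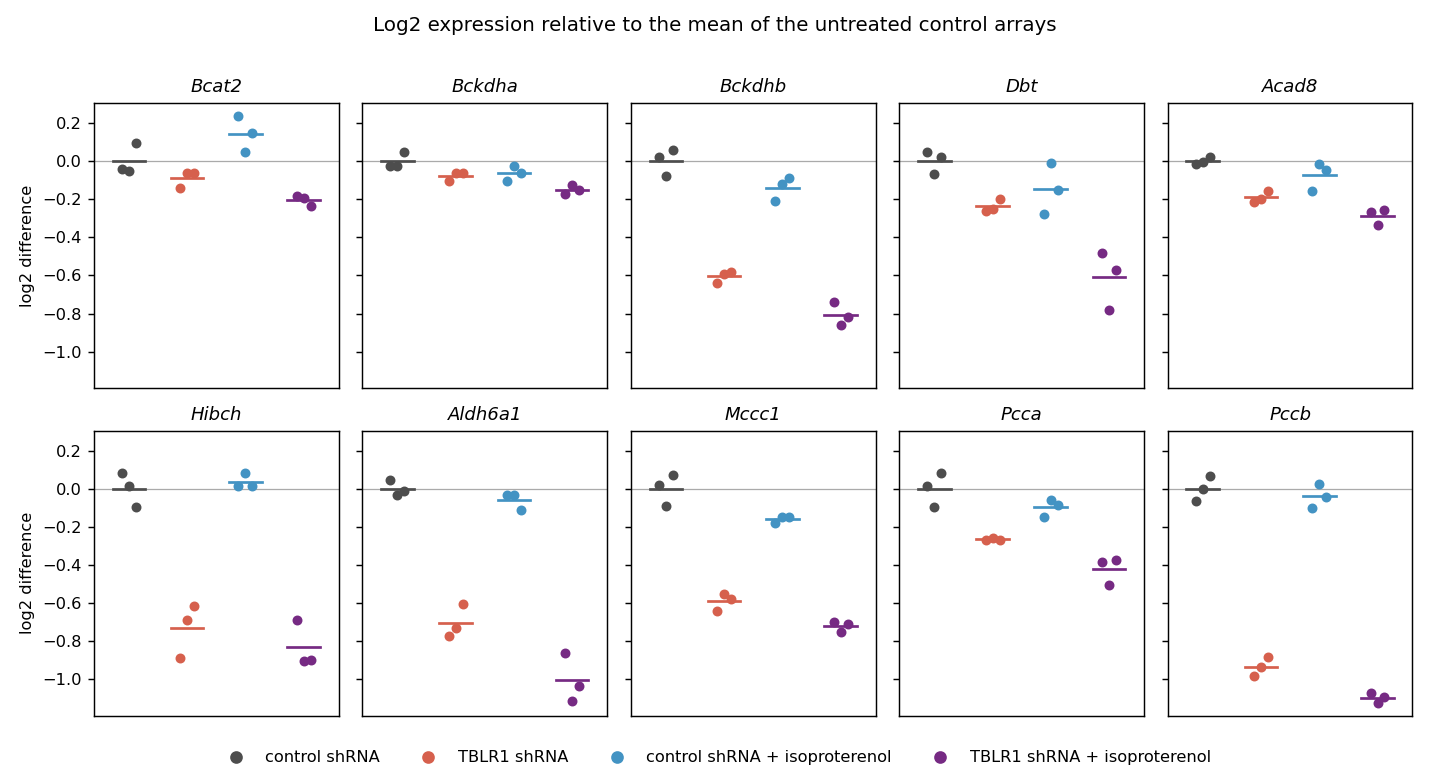
Log2 expression of each of the 10 enzymes on every array, relative to the mean of the untreated control shRNA arrays (y axis), for the 4 groups (x axis). Points are arrays and bars are group means. For Pccb all TBLR1 shRNA arrays sit far below all control shRNA arrays, whereas for Bckdha the groups lie close together.

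Bcat2 encodes the mitochondrial transaminase that takes the amino group off all 3 branched-chain amino acids. It measured 8.01, 8.0 and 8.15 with control shRNA and 7.91, 7.99 and 7.99 with TBLR1 shRNA in untreated cells. The groups did not overlap but nearly touched, and the difference of -0.09 ± 0.05 did not pass the test (adjusted p = 0.231, 95% confidence interval -0.20 to 0.03). With isoproterenol Bcat2 measured 8.29, 8.10 and 8.20 with control shRNA and 7.87, 7.86 and 7.82 with TBLR1 shRNA. Here the groups were well apart, and Bcat2 fell by 0.35 ± 0.05 (adjusted p = 4.33e-05).

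Bckdha and Bckdhb encode the α and β subunits of the E1 decarboxylase of the branched-chain ketoacid dehydrogenase complex, which work as a heterotetramer, and Dbt encodes the E2 acyltransferase that forms its core. Bckdhb measured 12.13, 12.03 and 12.17 in untreated control shRNA cells and 11.47, 11.52 and 11.53 in untreated TBLR1 shRNA cells. With isoproterenol it measured 11.90, 11.99 and 12.02 against 11.37, 11.25 and 11.29. Each TBLR1 shRNA array was lower than every control shRNA array by far more than the spread within groups, and Bckdhb fell by 0.60 ± 0.05 (adjusted p = 5.27e-08) without and by 0.67 ± 0.05 (adjusted p = 1.22e-08) with isoproterenol, which left 65.8% and 63% of the control signal. Bckdha, by contrast, measured 10.55, 10.55 and 10.62 against 10.47, 10.51 and 10.51 in untreated cells, and 10.47, 10.55 and 10.51 against 10.40, 10.45 and 10.42 with isoproterenol. Its differences of -0.08 ± 0.04 (adjusted p = 0.141) and -0.09 ± 0.04 (adjusted p = 0.0763) did not pass the test, and their 95% confidence intervals were -0.16 to 0.01 and -0.17 to -0.01. Bckdha was the member that passed in neither comparison.

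Dbt measured 10.32, 10.20 and 10.29 with control shRNA and 10.01, 10.02 and 10.07 with TBLR1 shRNA in untreated cells. With isoproterenol it measured 9.99, 10.26 and 10.12 against 9.79, 9.49 and 9.70, the widest spread within groups among the 3 subunits. Dbt fell by 0.24 ± 0.07 (adjusted p = 0.0158) without and by 0.47 ± 0.07 (adjusted p = 5.75e-05) with isoproterenol. The call in untreated cells was lost without control shRNA untreated replicate 1, at -0.21 (adjusted p = 0.0601), and when the arrays were centred on their hybridisation controls, at -0.17 (adjusted p = 0.0674).

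Transcripts of subunits of the same enzyme were also compared within arrays. The level of a subunit minus that of its partner on the same array, relative to the mean of the untreated control shRNA arrays, is given here as a description without a test. Bckdhb minus Bckdha lay between -0.06 and 0.05 on the untreated control arrays and between -0.54 and -0.52 on the untreated TBLR1 shRNA arrays. With isoproterenol it was -0.10 to -0.03 with control shRNA and -0.73 to -0.57 with TBLR1 shRNA. Pccb minus Pcca was -0.08 to 0.09 on untreated control arrays and -0.72 to -0.61 on untreated TBLR1 shRNA arrays, and 0.04 to 0.09 against -0.71 to -0.61 with isoproterenol. For both pairs every TBLR1 shRNA array was below every control shRNA array. Dbt minus Bckdha was -0.05 to 0.07 against -0.18 to -0.13 in untreated cells and -0.17 to 0.02 against -0.66 to -0.31 with isoproterenol, a wider spread over arrays. Mccc1 minus Mccc2, the subunits of methylcrotonyl-CoA carboxylase, moved little in comparison: -0.01 to 0.02 against -0.04 to 0 in untreated cells, and -0.12 to -0.08 against -0.12 to -0.02 with isoproterenol.

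**Figure D2:**
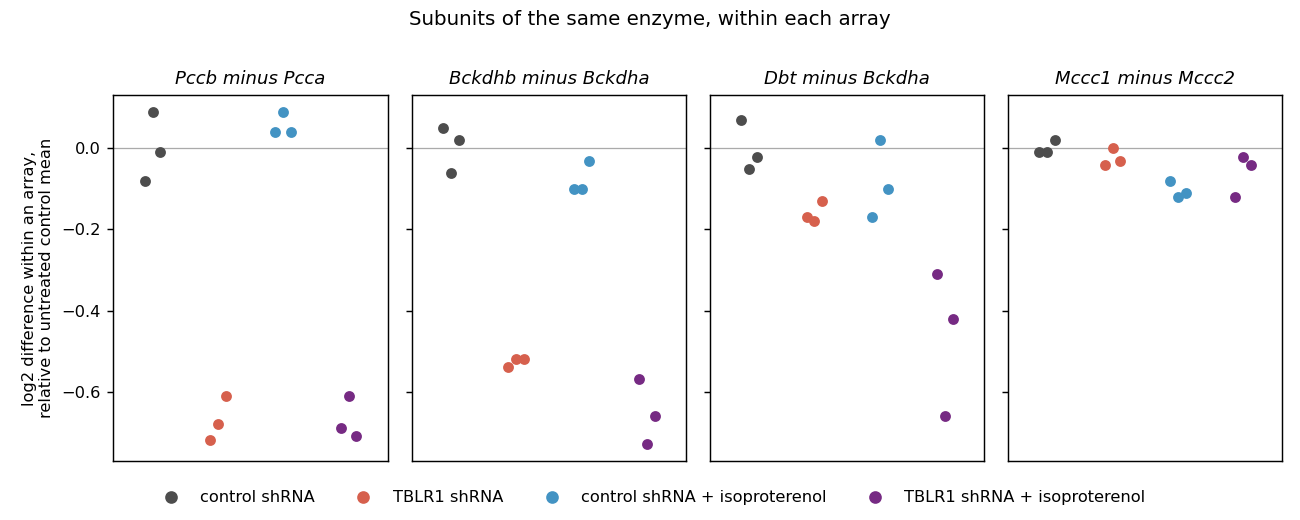
Within-array difference between the log2 levels of 2 subunits of an enzyme, relative to the mean of the untreated control shRNA arrays (y axis), for the 4 groups (x axis). Points are arrays. Pccb minus Pcca and Bckdhb minus Bckdha are lower on all TBLR1 shRNA arrays, whereas Mccc1 minus Mccc2 stays between -0.12 and 0.02 on all 12.

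The promoters of the pairs Pccb with Pcca and Bckdhb with Bckdha are shown because their transcript levels stood apart within arrays after TBLR1 shRNA. Each is the 250 bases upstream of the most upstream RefSeq start of the gene, on the strand of the gene, in GRCm38.p6. Capitals mark AGGTCA, the core sequence bound by many nuclear receptors, or its complement TGACCT, and GCGCNTGCG, a sequence bound by NRF1, on either strand. Pccb is at chr9:101034885-101035134 on the minus strand, Pcca at chr14:122484115-122484364 on the plus strand, Bckdhb at chr9:83924887-83925136 on the plus strand and Bckdha at chr7:25658762-25659011 on the minus strand.
Pccb: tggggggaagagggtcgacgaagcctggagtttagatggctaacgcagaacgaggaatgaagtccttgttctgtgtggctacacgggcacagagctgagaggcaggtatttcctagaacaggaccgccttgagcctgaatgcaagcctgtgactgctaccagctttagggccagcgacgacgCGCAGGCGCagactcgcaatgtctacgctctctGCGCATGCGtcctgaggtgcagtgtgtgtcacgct
Pcca: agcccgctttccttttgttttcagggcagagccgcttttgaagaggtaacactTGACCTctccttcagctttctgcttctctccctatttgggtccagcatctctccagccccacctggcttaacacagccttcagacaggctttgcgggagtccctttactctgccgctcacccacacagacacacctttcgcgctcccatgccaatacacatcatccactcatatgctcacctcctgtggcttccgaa
Bckdhb: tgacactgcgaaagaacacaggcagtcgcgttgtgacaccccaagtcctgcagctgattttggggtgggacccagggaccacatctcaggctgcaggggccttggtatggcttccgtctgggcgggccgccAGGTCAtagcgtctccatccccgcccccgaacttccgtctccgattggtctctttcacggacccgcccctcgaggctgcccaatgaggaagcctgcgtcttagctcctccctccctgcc
Bckdha: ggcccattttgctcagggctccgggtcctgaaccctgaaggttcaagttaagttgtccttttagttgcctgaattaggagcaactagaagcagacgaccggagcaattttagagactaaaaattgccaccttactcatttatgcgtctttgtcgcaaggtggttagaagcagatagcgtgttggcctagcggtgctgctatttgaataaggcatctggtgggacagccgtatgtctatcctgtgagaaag

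RefSeq promoters were found for 9 of the 10 genes, all but Dbt, and 11 motifs were searched on both strands in the 300 bases from 250 before to 50 after the start. Pccb had 2 matches to the NRF1 sequence, from -68 to -60 and from -35 to -27 relative to the start, and was the only member of the 9 with a match. Of the promoters of the tested genes, 11.3% hold it. Bckdhb and Pcca each had 1 match to AGGTCA, which 13.4% of those promoters hold. Bckdha had no match to any of the 11 motifs. CCAAT was present in Bckdhb, Acad8, Aldh6a1, Mccc1 and Pcca, and in 38.4% of the promoters of tested genes. The GC box GGGCGG was present in Bckdhb, Acad8, Hibch and Mccc1, and in 56.4% of them. None of the 9 held the cAMP response element TGACGTCA or the shorter TGACG within it, which 2.78% and 27.7% of the promoters hold, nor the E-box CACGTG (9.32%), the C/EBP palindrome TTGCGCAA (0.236%), the ETS sequence CCGGAAGT (6.41%), TATAAA (9.72%) or TCAAGGTCA (0.301%), which contains AGGTCA. A match is a description of the letters in this window.

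Acad8, Hibch and Aldh6a1 act on the valine route. Acad8 encodes isobutyryl-CoA dehydrogenase, Hibch encodes the hydrolase that frees 3-hydroxyisobutyrate from its CoA ester, and Aldh6a1 encodes methylmalonate semialdehyde dehydrogenase, which yields propionyl-CoA. Hibch measured 10.11, 10.04 and 9.93 with control shRNA and 9.14, 9.34 and 9.41 with TBLR1 shRNA in untreated cells, and 10.04, 10.11 and 10.04 against 9.34, 9.12 and 9.13 with isoproterenol. The TBLR1 shRNA arrays lay well below the control shRNA arrays of the same treatment. Hibch fell by 0.73 ± 0.07 (adjusted p = 5.06e-07) and by 0.86 ± 0.07 (adjusted p = 5.6e-08), to 60.2% and 54.9% of the control signal.

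Aldh6a1 measured 12.49, 12.41 and 12.43 with control shRNA and 11.67, 11.71 and 11.84 with TBLR1 shRNA in untreated cells, and 12.41, 12.41 and 12.33 against 11.58, 11.33 and 11.41 with isoproterenol. Both sets of 3 were far apart from their controls. Aldh6a1 fell by 0.70 ± 0.06 (adjusted p = 1.01e-07, 61.4% left) and by 0.94 ± 0.06 (adjusted p = 2.72e-09, 52.1% left). Acad8 moved far less: it measured 8.36, 8.37 and 8.40 against 8.16, 8.18 and 8.22 in untreated cells, and 8.22, 8.36 and 8.33 against 8.11, 8.04 and 8.12 with isoproterenol. It fell by 0.19 ± 0.04 (adjusted p = 0.00208) and by 0.22 ± 0.04 (adjusted p = 0.000596), and both calls were lost with centring on the hybridisation controls, at -0.12 (adjusted p = 0.168) and -0.11 (adjusted p = 0.181).

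Mccc1 encodes the biotin-carrying α subunit of methylcrotonyl-CoA carboxylase on the leucine route. It measured 12.20, 12.09 and 12.25 with control shRNA and 11.54, 11.63 and 11.60 with TBLR1 shRNA in untreated cells, and 12.00, 12.03 and 12.03 against 11.48, 11.43 and 11.47 with isoproterenol. The groups were clearly apart under both treatments, and Mccc1 fell by 0.59 ± 0.04 (adjusted p = 3.35e-08, 66.4% left) and by 0.56 ± 0.04 (adjusted p = 4.34e-08, 67.9% left).

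Pcca and Pccb encode the biotin-carrying α and the β subunit of propionyl-CoA carboxylase, which makes methylmalonyl-CoA from the propionyl-CoA of valine and isoleucine. Pccb measured 9.47, 9.53 and 9.60 with control shRNA and 8.55, 8.60 and 8.65 with TBLR1 shRNA in untreated cells, and 9.43, 9.56 and 9.49 against 8.46, 8.41 and 8.44 with isoproterenol. It had the largest differences of the 10 genes, -0.93 ± 0.05 (adjusted p = 4.85e-10) and -1.05 ± 0.05 (adjusted p = 8.54e-11), which left 52.4% and 48.2% of the control signal. In untreated cells 48 of the 15267 genes had a difference as low as that of Pccb or lower, and with isoproterenol 40 had. Pcca measured 10.83, 10.72 and 10.90 against 10.55, 10.56 and 10.55 in untreated cells, and 10.67, 10.76 and 10.73 against 10.43, 10.31 and 10.44 with isoproterenol. These groups did not overlap either, and Pcca fell by 0.26 ± 0.05 (adjusted p = 0.000464) and by 0.33 ± 0.05 (adjusted p = 4.06e-05).

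The list of other enzymes and cofactor proteins of these routes held 22 genes, of which 21 were measured. In untreated cells 13 of the 21 fell, 3 rose and 5 did not pass, with a median of -0.16. With isoproterenol 14 fell, 2 rose and 5 did not pass, with a median of -0.29. Of all genes 20% were lower and 17.7% higher in untreated cells, and 22.3% and 19.5% with isoproterenol. These shares also stand beside the counts of the lists that follow for TBLR1 shRNA. Directly after propionyl-CoA carboxylase, the epimerase Mcee fell by 0.66 ± 0.06 (adjusted p = 1.09e-07) and the methylmalonyl-CoA mutase Mmut fell by 0.42 (adjusted p = 1.64e-06) in untreated cells, with differences of -0.77 and -0.46 in the presence of isoproterenol. The cobalamin proteins that serve the mutase, Mmaa and Mmab, had differences of -0.42 and -0.32 in untreated cells and -0.32 and -0.36 with isoproterenol, all past the test. Mccc2, the partner of Mccc1, fell by 0.57 ± 0.05 (adjusted p = 1.11e-07) and by 0.60. Dld, the E3 dehydrogenase that the complex shares with other ketoacid dehydrogenases, fell by 0.36 ± 0.07 (adjusted p = 0.000662) and by 0.54.

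Further falls were measured for Acadsb, the dehydrogenase of the isoleucine route (-0.38 and -0.42), for Hibadh, which oxidises 3-hydroxyisobutyrate (-0.33 and -0.37), and for Hsd17b10 of the isoleucine route (-0.27 and -0.35). Not all steps moved this way. Ivd, the isovaleryl-CoA dehydrogenase of the leucine route, had differences of -0.05 (adjusted p = 0.403) and -0.02 (adjusted p = 0.787), neither past the test, and its sign turned under other scalings. Bcat1, the cytosolic transaminase, rose by 0.38 ± 0.05 (adjusted p = 1.14e-05) and by 0.34, opposite in direction to Bcat2 with isoproterenol. The thiolase Acaa2 rose by 0.24 (adjusted p = 0.000871) and by 0.36. The aminotransferase Abat rose by 0.16 (adjusted p = 0.0114) in untreated cells, a call lost without control shRNA untreated replicate 1 (adjusted p = 0.0677) or TBLR1 shRNA untreated replicate 1 (adjusted p = 0.0504), and had a difference of 0.03 (adjusted p = 0.722) with isoproterenol.

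**Figure D3:**
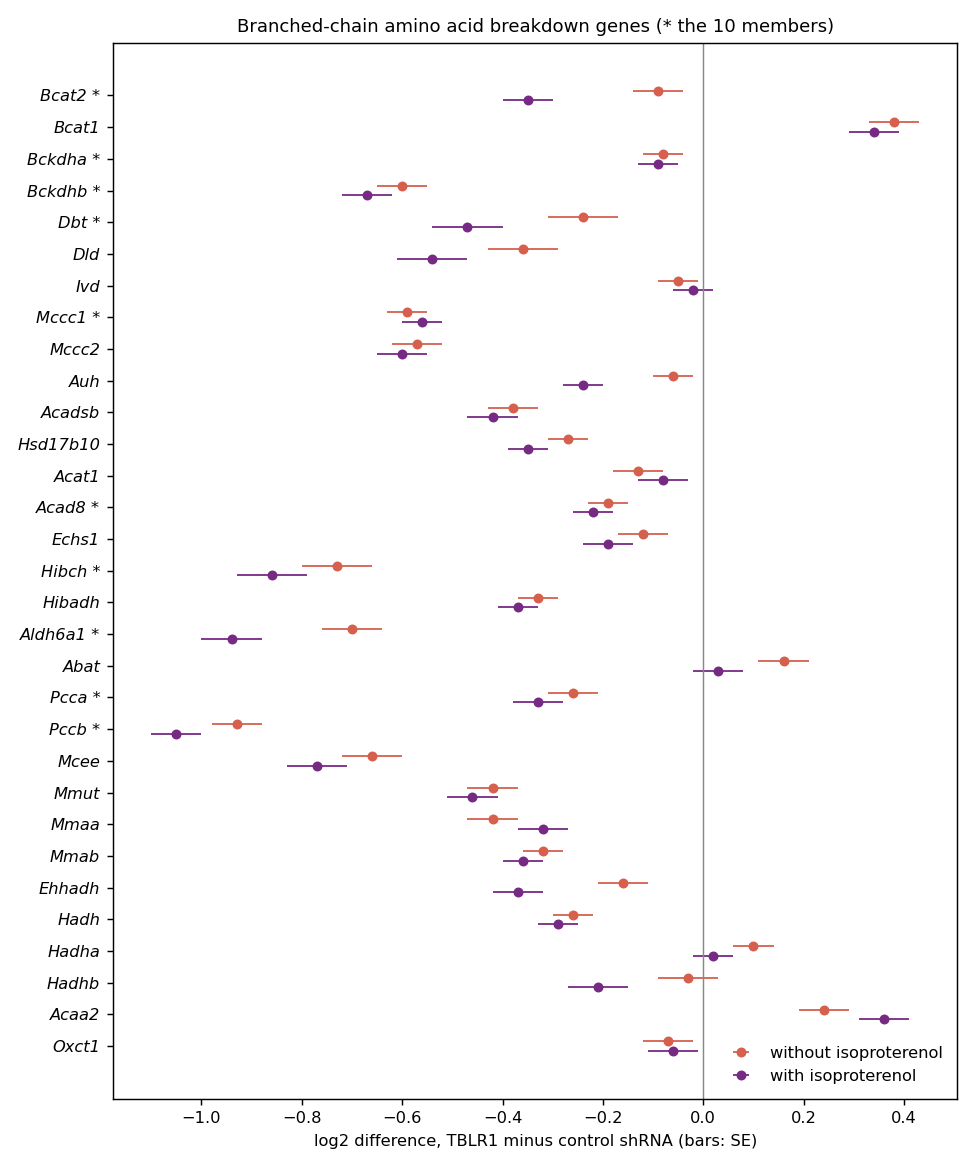
Log2 difference between TBLR1 and control shRNA (x axis) for the 31 measured genes of the pathway (y axis), without and with isoproterenol. Genes are ordered roughly by route, with cofactor proteins and further enzymes towards the bottom. Points are differences of group means, bars are SE, and asterisks mark the 10 genes. Pccb lies furthest to the left and Bcat1 lies to the right of 0.

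Biotin is the cofactor of both carboxylases. Of 4 measured genes on the list of other biotin enzymes and biotin handling, 1 fell and none rose in untreated cells, and 3 fell and none rose with isoproterenol. The gene that fell in both, the pyruvate carboxylase Pcx, fell by 0.64 ± 0.04 (adjusted p = 8.66e-09) and by 0.76 (adjusted p = 7.79e-10). The biotin ligase Hlcs, the biotinidase Btd and the biotin carrier Slc5a6 had differences of 0.15, 0.09 and -0.14 in untreated cells, none past the test, and with isoproterenol Btd and Slc5a6 were the other two that fell. The array also carries 4 control probe sets for pyruvate carboxylase, whose differences were -0.49 to -0.75 in untreated cells and -0.54 to -0.94 with isoproterenol. Lipoic acid is the cofactor of Dbt. A list of 10 genes held Lias, Lipt1 and Lipt2 of lipoate handling, and otherwise subunits of other lipoate-dependent complexes. Of these 10 genes 6 fell and 1 rose in untreated cells, and 6 fell with isoproterenol. The lipoate synthase Lias had differences of -0.27 and -0.36, and the transferase Lipt2 of -0.38 and -0.33. The transferase Lipt1 fell by 0.22 (adjusted p = 0.00348) in untreated cells, but its difference of -0.04 with isoproterenol did not pass (adjusted p = 0.588).

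Of 14 measured regulators and carriers of the pathway, 7 fell and 5 rose with TBLR1 shRNA in untreated cells, and 10 fell and 1 rose with isoproterenol. The complex is switched off by the kinase Bckdk and on by the phosphatase Ppm1k. Both transcripts fell, Bckdk by 0.30 (adjusted p = 2.32e-05) and 0.42 and Ppm1k by 0.49 (adjusted p = 5.12e-06) and 0.39. Slc25a44, which carries branched-chain amino acids into mitochondria, rose by 0.40 (adjusted p = 6.43e-07) and 0.35, whereas the plasma membrane carrier Slc43a1 fell by 0.59 and 0.45. Of transcription factors, Klf15, known in mice to drive genes of branched-chain amino acid breakdown, fell by 0.51 (adjusted p = 5.97e-06) and 0.76, and the nuclear receptor Esrra fell by 0.42 (adjusted p = 1.42e-06) and 0.33. Cebpa, a factor of adipocyte differentiation, fell by 0.25 (adjusted p = 0.00101) and 0.64. Pparg, the master regulator of adipocytes, fell by 0.33 (adjusted p = 4.47e-05) in untreated cells and by 0.13 (adjusted p = 0.0397) with isoproterenol, the latter call being lost with cyclic loess (adjusted p = 0.232), with centring on the hybridisation controls (adjusted p = 0.799) and without control shRNA or TBLR1 shRNA isoproterenol replicate 2 or 3 (adjusted p = 0.0532 to 0.167). Other factors of the list rose in untreated cells: Cebpb, a factor of early adipocyte differentiation, by 0.41 (adjusted p = 1.18e-06), and the coactivators Ppargc1b by 0.53 (adjusted p = 4.6e-06) and Ppargc1a by 0.29 (adjusted p = 0.00353). With isoproterenol Cebpb fell by 0.19 (adjusted p = 0.00199), a call lost with centring on the hybridisation controls, at -0.08 (adjusted p = 0.317), Ppargc1a fell by 0.80 (adjusted p = 1.25e-07), and Ppargc1b had a difference of 0.00 (adjusted p = 0.966). The transporter heavy chain Slc3a2 rose by 0.35 (adjusted p = 1.71e-05) in untreated cells and had a difference of 0.04 (adjusted p = 0.608) with isoproterenol. The carriers Slc7a5 and Slc7a8 had differences of 0.13 (adjusted p = 0.0811) and -0.06 (adjusted p = 0.401) in untreated cells. With isoproterenol Slc7a5 had 0.08 (adjusted p = 0.308) and Slc7a8 had -0.14 (adjusted p = 0.033). Whether these changes bear on the 10 enzymes was not tested.

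**Figure D4:**
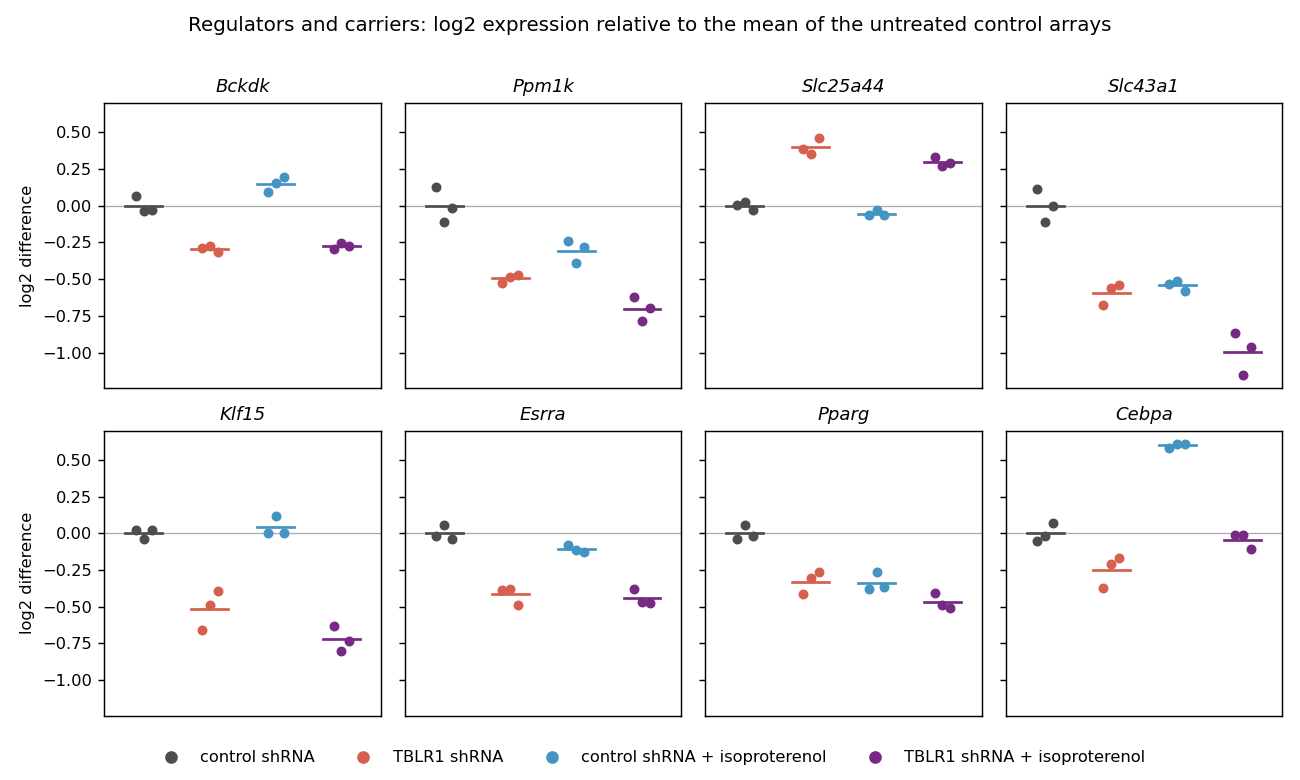
Log2 expression of regulators and carriers of the pathway on every array, relative to the mean of the untreated control shRNA arrays (y axis), for the 4 groups (x axis). Points are arrays and bars are group means. Slc25a44 is higher and Bckdk, Ppm1k, Slc43a1 and Klf15 are lower on the TBLR1 shRNA arrays than on the control shRNA arrays of the same treatment.

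The response of the 10 enzymes to isoproterenol was measured with each shRNA, in 2 comparisons that share no arrays. Both again use the spread estimated from all 12 arrays. With control shRNA 1 of the 10 genes, Mccc1, fell and none rose, against 10.9% of all genes lower and 7.7% higher. The differences ranged from -0.16 to 0.15 with a median of -0.07, the median of all genes being 0. Mccc1 fell by 0.16 ± 0.04 (adjusted p = 0.0178), and this call was lost without control shRNA untreated replicate 1 (adjusted p = 0.0631) or replicate 3 (adjusted p = 0.0898) and without control shRNA isoproterenol replicate 1 (adjusted p = 0.0605). Bcat2 had a difference of 0.15 ± 0.05 (adjusted p = 0.065) and Bckdhb of -0.14 ± 0.05 (adjusted p = 0.0534), neither past the test. Bcat2 passed without control shRNA untreated replicate 3 (adjusted p = 0.0201) or control shRNA isoproterenol replicate 2 (adjusted p = 0.0218), and Bckdhb without control shRNA untreated replicate 2 (adjusted p = 0.0219) or TBLR1 shRNA isoproterenol replicate 1 (adjusted p = 0.0472). With all arrays Bcat2 passed with cyclic loess (adjusted p = 0.0316), array weights (adjusted p = 0.0233) and without the lowest 33% of genes (adjusted p = 0.0473). Bckdhb passed with centring on the hybridisation controls (adjusted p = 0.0449), a trended robust eBayes (adjusted p = 0.0323) and without the lowest 33% of genes (adjusted p = 0.0376). Ppargc1a, a coactivator known to be induced by β-adrenergic signalling, rose by 2.84 ± 0.07 with control shRNA and by 1.75 ± 0.07 with TBLR1 shRNA.

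With TBLR1 shRNA 4 of the 10 genes fell with isoproterenol and none rose, against 4.78% of all genes lower and 4.09% higher. The differences ranged from -0.38 to -0.07 with a median of -0.14. Dbt fell by 0.38 ± 0.07 (adjusted p = 0.00352), Aldh6a1 by 0.30 ± 0.06 (adjusted p = 0.00429), Bckdhb by 0.20 ± 0.05 (adjusted p = 0.0131) and Pccb by 0.16 ± 0.05 (adjusted p = 0.0414). The call of Bckdhb was lost without TBLR1 shRNA untreated replicate 2 (adjusted p = 0.0536) or 3 (adjusted p = 0.0629) or TBLR1 shRNA isoproterenol replicate 2 (adjusted p = 0.0671). The call of Pccb was lost without control shRNA untreated replicate 2, control shRNA isoproterenol replicate 3, TBLR1 shRNA untreated replicate 2 or 3, or any of the 3 TBLR1 shRNA isoproterenol arrays (adjusted p = 0.0547 to 0.18). It was also lost with cyclic loess (adjusted p = 0.0763), with centring on the hybridisation controls (adjusted p = 0.144) and with only the arrays compared in the fit (adjusted p = 0.0506). Pcca, at -0.16 (adjusted p = 0.0512), passed without control shRNA untreated replicate 2 (adjusted p = 0.0348) or 3 (adjusted p = 0.038). With all arrays Pcca passed with a trended robust eBayes (adjusted p = 0.0345) and without the lowest 33% of genes (adjusted p = 0.0364). Of the 21 other genes of the pathway, 4 passed with TBLR1 shRNA, all lower (Echs1, Hibadh, Mmut and Ehhadh), and 2 passed with control shRNA, both higher (Bcat1 and Auh). Of all genes 4.78% were lower and 4.09% higher with TBLR1 shRNA, and 10.9% and 7.7% with control shRNA.

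The difference between the 2 responses to isoproterenol was tested as an interaction in limma. None of the 10 genes passed at an adjusted p under 0.05, against 1.33% of all genes lower and 1.07% higher. An unadjusted p under 0.05 was found for 2074 of all 15267 genes and for 3 of the 10. These 3 were Bcat2 with -0.26 ± 0.07 (adjusted p = 0.0876, 95% confidence interval -0.42 to -0.10), Aldh6a1 with -0.24 ± 0.08 (adjusted p = 0.18, -0.41 to -0.06) and Dbt with -0.23 ± 0.10 (adjusted p = 0.334, -0.45 to -0.01). The intervals are not adjusted. Of the 21 other genes of the pathway none passed the interaction test either, and 2 had an unadjusted p under 0.05, so that the calls listed above for each shRNA were not shown to differ between the shRNAs. Bcat2 passed with array weights at -0.30 (adjusted p = 0.0247), without control shRNA untreated replicate 3 (adjusted p = 0.0376) and without control shRNA isoproterenol replicate 2 (adjusted p = 0.0471), and Aldh6a1 passed without TBLR1 shRNA isoproterenol replicate 1 (adjusted p = 0.0409).

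**Figure D5:**
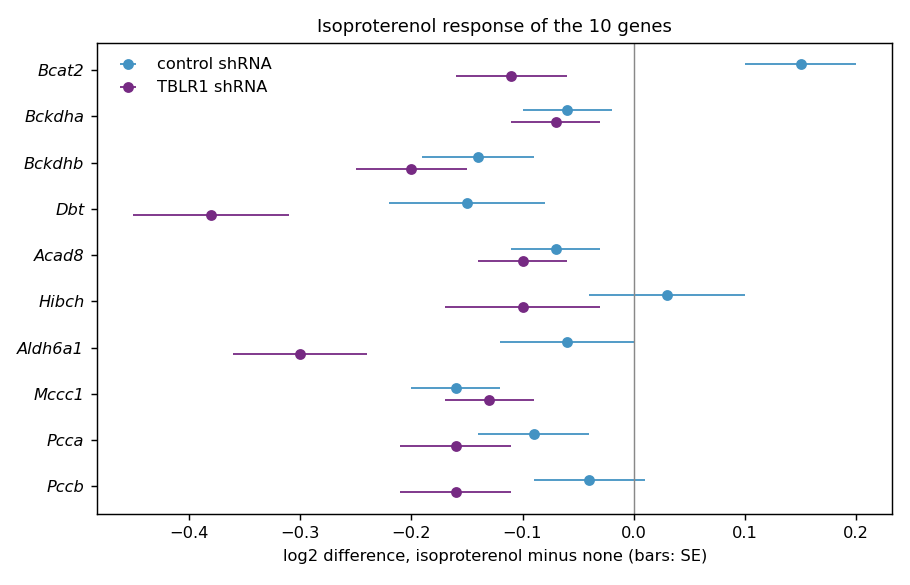
Log2 difference between isoproterenol and no treatment (x axis) for the 10 enzymes (y axis), with control and with TBLR1 shRNA. Points are differences of group means and bars are SE. With TBLR1 shRNA all 10 differences are below 0, and with control shRNA they lie between -0.16 and 0.15.

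Other mitochondrial pathways are given beside the 10 enzymes as values, and the difference between lists was not tested. Over all genes 20% were lower and 17.7% higher without isoproterenol, and 22.3% and 19.5% with it. Of 15 measured TCA cycle genes, 5 fell and 2 rose in untreated TBLR1 shRNA cells (median -0.08) and 7 fell and 1 rose with isoproterenol (median -0.11). Ogdh and Dlst are counted here and in the list of lipoate handling and lipoate-dependent complexes. Among the TCA cycle genes with the largest changes, fumarase, Fh1, had differences of -0.59 and -0.60, whereas citrate synthase, Cs, had 0.29 and 0.22. The 19 measured fatty acid oxidation genes include Hadha, Hadhb, Echs1, Hadh and Acaa2, which are also among the 21 other genes of the pathway. Of the 19 genes, 6 fell and 5 rose in untreated cells (median -0.06), and 9 fell and 5 rose with isoproterenol (median -0.10). Among the genes of this list with the largest changes, Acadm had differences of -0.47 and -0.53 and Cpt1a of 1.18 and 1.06.

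Markers of cell type and state are given beside the 10 enzymes, and among them the adipocyte markers fell as well. Of 16 measured adipocyte markers, 12 fell in untreated cells (median -0.23) and 14 with isoproterenol (median -0.30), none of them rose, and their mean level per array was 11.86 to 11.89 with control shRNA against 11.46 to 11.50 with TBLR1 shRNA in untreated cells, and 11.91 to 11.95 against 11.46 to 11.51 with isoproterenol. These markers include Pparg and Cebpa, which are also among the regulators of the pathway given above. The adipocyte marker Fabp4 measured 14.43 to 14.49 on all 12 arrays, where the highest value of any probe set was 14.58. Of 13 measured preadipocyte markers, 6 rose and 5 fell in untreated cells and 6 rose and 4 fell with isoproterenol, with means of 9.96 to 10.04 against 10.13 to 10.19 and of 9.93 to 10.00 against 10.17 to 10.29. The 11 macrophage markers measured had means of 6.45 to 6.60 on all arrays, and 1 rose and 1 fell in each comparison. The 7 endothelial markers had means of 6.27 to 6.34, and 1 rose, with isoproterenol. All 13 measured interferon-response genes rose in both comparisons, with medians of 2.23 and 2.72. The difference between the 3′ and 5′ probe sets of actin, a sign of RNA quality, was 0.93 to 0.96 with control and 0.88 to 0.91 with TBLR1 shRNA in untreated cells, and 0.98 to 1.04 against 0.99 to 1.05 with isoproterenol. That of Gapdh overlapped between the shRNAs, at 0.01 to 0.06 against 0.02 to 0.05 in untreated cells and -0.03 to 0.05 against -0.02 to 0.14 with isoproterenol. The part of these changes in the result for the enzymes was not tested.

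The mean of the 10 enzymes, each centred on its own mean, was 0.234 to 0.315 on the untreated control shRNA arrays, 0.183 to 0.253 on the control shRNA arrays with isoproterenol, -0.213 to -0.122 on the untreated TBLR1 shRNA arrays and -0.392 to -0.277 on the TBLR1 shRNA arrays with isoproterenol. The 6 arrays of each shRNA did not overlap with those of the other. As a description over the same 12 arrays, which share their groups, the correlation of a member with the mean of the other 9 ranged from 0.774 for Bcat2 and 0.806 for Bckdha to 0.991 for Aldh6a1 and 0.994 for Bckdhb. The genes outside the list whose levels followed the mean most closely were Sdhaf3 (r = 0.996), Fam117a (0.995), Ces1f (0.995), Cryz (0.994) and Acot13 (0.994). Their differences with TBLR1 shRNA in untreated cells were -0.46, -1.04, -0.80, -0.34 and -0.34. Those that ran most opposite to it were Rrbp1 (r = -0.998), Tpm1 (-0.995) and Grwd1 (-0.995), with differences of 0.57, 0.72 and 0.86.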

How the data were processed

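Labelled cRNA from 12 samples was hybridised to Affymetrix arrays, per the labels' protocols. What the authors deposited is 1 log2 level for each probe set, a scale read from the range of 5.391 to 14.58. Sorted arrays differed by no more than 0.00781, so the values had been quantile normalised, which removes a shift shared by most genes. How background was corrected and probes were summarised is not given in the sources used. Arrays give no counts, so the number of arrays limits the precision.

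Of 16553 probe sets, 61 were controls, 15270 had 1 symbol in the platform annotation, none had several and 1222 were unnamed. For 3 genes with 2 probe sets the brighter was used, which left 15267 genes. No filter on low values was applied. In limma 3.58.1 (R 4.3.3) the 12 arrays were modelled with 1 mean for each of 4 groups (8 residual and 7.38 prior degrees of freedom), with 5 contrasts. Every adjusted p is two-sided, from this model or its alternatives, and adjusted by Benjamini-Hochberg over all genes of a contrast, and those under 0.05 were called. Alternatives were other scalings, eBayes settings, array weights, a filter, a stricter threshold, a replicate block, separate fits and leaving out each array.

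The 10 members and the 12 gene lists were chosen with earlier results of these data known. Every member is described in full, and genes like the members are named by the highest and lowest correlation with their mean. Other genes of the lists are named by their role in the pathway, and not all are named. Those named from the TCA cycle and fatty acid oxidation lists are among the genes with the largest change in either TBLR1 shRNA comparison. The script was tested on simulated data. Plots used matplotlib 3.10.9 and Python 3.11.15.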

Additional observations from a re-analysis of the deposited data

Results flagged for a closer look

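The difference between the isoproterenol response with TBLR1 shRNA and that with control shRNA was tested in limma. It passed an adjusted p under 0.05 for 5 of the 14 measured regulators and carriers of the pathway, all lower, and for none of the 10 enzymes. Of all genes 1.33% passed as lower and 1.07% as higher, so that none of 10 is close to the share of all genes. Ppargc1a had a difference of -1.09 (adjusted p = 1.95e-05), with a rise in both shRNA groups. Cebpb had -0.60 (adjusted p = 5.3e-05), with rises of 1.10 and 0.50. Ppargc1b, a coactivator related to Ppargc1a, had -0.54 (adjusted p = 0.0038), and Cebpa had -0.39 (adjusted p = 0.0102). Slc3a2, the heavy chain of amino acid transporters, had -0.31 (adjusted p = 0.0206), a call lost with centring on the hybridisation controls, at -0.27 (adjusted p = 0.167), and without control shRNA untreated replicate 1 (adjusted p = 0.0537) or TBLR1 shRNA isoproterenol replicate 3 (adjusted p = 0.0549).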

How the results depend on the processing

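The count of members called stayed within 1.5 times of the reported 8 and 9 for TBLR1 shRNA under every alternative run, with 7 to 8 without and 9 to 9 with isoproterenol when 1 array was left out. It was less steady for isoproterenol, with 0 to 2 members with control shRNA, 2 to 5 with TBLR1 shRNA and 0 to 1 for the difference between the responses. With control shRNA the count was 2 with cyclic loess, with centring on the hybridisation controls, with a trended robust eBayes and with array weights, 3 without the lowest 33% of genes and 0 at an adjusted p under 0.01. With TBLR1 shRNA it was 2 at 0.01, and for the difference between the responses it was 1 with array weights. The other steps gave 12 to 16, 15 to 17, 0 to 3, 0 to 6 and 0 to 1 calls in the 5 comparisons when 1 array was left out. With control shRNA isoproterenol called 5 of them with the trended robust eBayes, 5 without the lowest genes and 0 at 0.01, and with TBLR1 shRNA it called 2 with hybridisation centring, 1 when only the arrays compared were fitted and 0 at 0.01. Over all genes the leave-one-out counts were 5177 to 5844, 5829 to 6373, 2250 to 2900, 752 to 1681 and 198 to 385, and at 0.01 the 3 isoproterenol comparisons gave 1828, 687 and 132. Centring on 18 hybridisation control probe sets moved the median of all genes to 0.06 without and 0.104 with isoproterenol in the TBLR1 shRNA comparisons, and the share of calls that were higher from 46.9% to 66.6% and from 46.7% to 75%. That share moved from 41.5% to 25.2% for isoproterenol with control shRNA, from 44.5% to 59.9% for the difference, and from 46.1% to 56.9% with cyclic loess for isoproterenol with TBLR1 shRNA. With this centring 6 and 8 members fell, with medians of -0.35 and -0.40. Signs turned for small differences, and the cause was not tested. With hybridisation centring these were Ivd without isoproterenol (0.02) and with it (0.09), Bckdha with isoproterenol (0.02), Hibch for isoproterenol with control shRNA (-0.02), and Bckdha (0.03) and Acad8 (0.01) for the difference between the responses. Ivd also turned with cyclic loess (0.02). Leaving out 1 array turned the sign of Ivd with isoproterenol (range -0.05 to 0.01, highest without TBLR1 shRNA isoproterenol replicate 1), of Abat with isoproterenol (-0.02 to 0.05, lowest without control shRNA isoproterenol replicate 3), of Hibch for isoproterenol with control shRNA (-0.02 to 0.08, lowest without control shRNA untreated replicate 3) and of Bckdha for the difference (-0.04 to 0.01, highest without control shRNA isoproterenol replicate 2). Abat was not among the genes left without the lowest 33%, and the fit to only the arrays compared has no counterpart for the difference between the responses.

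No pairing of arrays by replicate number was seen. Deviations of same-numbered arrays correlated at -0.209 to 0.183 over 18 pairs, and those of differently numbered arrays at -0.187 to 0.259 over 36. With 3 arrays per group this cannot exclude a pairing, and the labels do not state one. With the replicate number as a block 8, 9, 1, 4 and 0 members were called in the 5 comparisons, as without it, and 5623, 6279, 2723, 1267 and 320 genes in all.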
